A study of Mus musculus with 38 samples.

Results

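The 10 genes described here are known for their expression in the small intestine: Fabp2, Fabp6, Apoa1, Apoa4, Apoc3, Apob, Lct, Sis and Alpi in absorptive enterocytes and Lyz1 in Paneth cells. They were chosen by gene symbol, and all 10 had a row among the 46078 gene identifiers of the count files. RNA was sequenced from 38 libraries of isolated intestinal epithelial cells of C57BL/6 mice. KO mice (Hk2∆IEC) carried a floxed allele of Hk2, the gene of the glycolytic enzyme hexokinase 2, and a Cre recombinase driven by the Villin promoter, which is active in the intestinal epithelium. WT mice were Hk2fl/fl littermates, so the floxed allele is common to both genotypes. The groups were untreated mice on day 0 (4 WT, 5 KO) and mice given 1.5% dextran sodium sulfate (DSS), a polymer that injures the colonic epithelium, for 3 days (7 WT, 8 KO) or 7 days (7 WT, 7 KO). Colitis was induced in males aged 10 to 12 weeks, with both genotypes in shared cages. The labels give ages of 9 to 11 and of 86 to 92 weeks for basal work, without telling which age or sex the day 0 mice had. Each library is named by its title, so that d0_KO_60 is a KO library of day 0.

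The small intestine digests and absorbs most fat, sugar and protein, and its enterocytes express the genes for this work at far higher levels than the colon. Along the small intestine, lactase and the apolipoproteins are strongest in the upper part, and Fabp6, the ileal bile acid binding protein, is strongest at the lower end. Absorbed fat leaves the enterocyte in chylomicrons, particles built on apolipoprotein B that also carry apolipoproteins A1, A4 and C3.

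The starts of 4 members are shown because the results turn on these genes: Fabp2 was the highest member per length, Fabp6 and Sis stood out in single libraries, and Alpi changed between days. Each line gives the 250 bases before the RefSeq start on build GRCm38.p6, 5′ to 3′ on the strand of the gene. The windows are chr3:122894822-122895071 for Fabp2 on the plus strand, and chr11:43601563-43601812 for Fabp6, chr3:72967864-72968113 for Sis and chr1:87101607-87101856 for Alpi on the minus strand. Capitals mark matches on either strand to 4 motifs. TTTAT is a core that CDX factors can bind. AGATAA is known for GATA factors. The HNF4 motif searched was CAAAGTCCA. The nuclear receptor motif was AGGTCA.
Fabp2: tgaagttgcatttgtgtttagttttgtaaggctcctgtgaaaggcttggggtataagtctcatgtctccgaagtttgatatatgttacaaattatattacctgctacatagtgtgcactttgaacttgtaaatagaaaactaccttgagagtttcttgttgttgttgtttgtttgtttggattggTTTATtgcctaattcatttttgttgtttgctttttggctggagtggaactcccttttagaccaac
Fabp6: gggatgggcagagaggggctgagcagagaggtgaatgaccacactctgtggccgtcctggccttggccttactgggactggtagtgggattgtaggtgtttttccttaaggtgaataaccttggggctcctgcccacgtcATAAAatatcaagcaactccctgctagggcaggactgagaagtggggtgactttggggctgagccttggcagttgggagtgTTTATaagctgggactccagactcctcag
Sis: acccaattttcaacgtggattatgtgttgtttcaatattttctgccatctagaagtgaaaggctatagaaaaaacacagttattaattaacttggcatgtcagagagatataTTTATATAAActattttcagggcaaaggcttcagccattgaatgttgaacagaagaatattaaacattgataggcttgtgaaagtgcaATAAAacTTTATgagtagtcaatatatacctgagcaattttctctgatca
Alpi: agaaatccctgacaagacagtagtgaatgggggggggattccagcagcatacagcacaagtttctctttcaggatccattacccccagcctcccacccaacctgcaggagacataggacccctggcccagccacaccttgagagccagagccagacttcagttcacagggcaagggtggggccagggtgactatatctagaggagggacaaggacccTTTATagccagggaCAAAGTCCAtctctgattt

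RefSeq gave a window for 9 of the 10 members, all but Apoc3. Sis held 4 matches to TTTAT or its reverse ATAAA, Fabp6 held 2, and Fabp2 and Alpi held 1 each. This short motif was in 37.3% of 32851 promoter windows of the same length. Alpi was the one member with the HNF4 motif, which 0.384% of all windows held. None of the 4 windows printed held AGATAA or AGGTCA, which were in 9.99% and 14.02% of all windows. A match is a string of letters and not a measured binding site.

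Lyz1 has a near copy, Lyz2, the lysozyme gene of macrophages and other myeloid cells. The first 150 coding bases of each gene are printed from GENCODE M21 transcripts (build GRCm38), with the 14 positions at which they differ in capitals, because this likeness bears on every Lyz1 count.
Lyz1: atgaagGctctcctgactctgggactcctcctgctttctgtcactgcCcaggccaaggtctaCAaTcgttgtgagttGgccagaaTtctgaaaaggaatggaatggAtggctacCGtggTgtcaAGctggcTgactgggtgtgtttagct
Lyz2: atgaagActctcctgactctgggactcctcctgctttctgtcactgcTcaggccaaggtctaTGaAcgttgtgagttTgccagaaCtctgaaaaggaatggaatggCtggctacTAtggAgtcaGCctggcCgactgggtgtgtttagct

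Over the whole coding sequence of 444 bases, 22 positions differed and 95.0% were identical. Of the 1214 windows of 50 bases (1 read of a pair) in the Lyz1 transcript, 195 (16.1%) occur without a mismatch in Lyz2. For Alpi and its relative Akp3 the share was 1.53% (35 of 2288 windows). Apoa1 shared no window with Apoa4, nor Fabp2 with Fabp6. Lyz1 values are uncertain where Lyz2 is abundant.

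Total counts were 10.5 to 60.6 M per library (median 43.2 M), with 10.5 to 17.5 M in the day 0 KO libraries. Day 0 libraries carried another name prefix than the rest, and mitochondrial ribosomal RNA took 6.25 to 45.6% of their counts against 0.352 to 3.95% in the later libraries. The 45.6% was in d0_KO_32 alone, and the other day 0 libraries reached 13.8%. In d0_KO_32 the mitochondrial genome took 61.7% of all counts, and 20100 genes were detected, the fewest of day 0. The part of this in its values was not tested. Whether a difference from day 0 belongs to the day or to the library series cannot be told apart. On day 0, Hk2 was 247 to 439 CPM (library-scaled counts, adjusted by TMM) in WT and 31.2 to 111 CPM in KO. The library labelled d3_KO_345 had 439.6 CPM of Hk2, above all WT libraries of day 3 (99.3 to 224 CPM), and so goes against its label. The series text names colon tissue while the labels name intestinal epithelial cells. Car1, a carbonic anhydrase of colonocytes, was at 1777 CPM or more in each library, and the proximal small intestinal factor Gata4 at 2.44 CPM or less.

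Per length, Fabp2, the fatty acid binding protein of enterocytes (chr3:122895072-122899506), was far above the other members. Its median over the 38 libraries was 277 CPM per kb, with a range of 136 to 1201. Next came Alpi, the intestinal alkaline phosphatase of the brush border (chr1:87098002-87101606), at a median of 13.1 CPM per kb, Fabp6 (chr11:43596049-43601540) at 6.94 and Apob (chr12:7977648-8016835) at 6.56. The ranges of these 3 genes overlapped (4.22 to 49.4, 2.56 to 84.4 and 2.25 to 20.3 CPM per kb), so their order is not resolved, whereas the lowest Fabp2 value lay above the highest value of each.

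The other 6 members were low. Sis (sucrase-isomaltase, chr3:72888557-72967863) had a median of 0.528 CPM per kb, Lyz1 (chr10:117287796-117292868) of 0.407 and Apoa1 (chr9:46228580-46230466) of 0.229, with overlapping ranges. Apoc3 (chr9:46232933-46235636) had 3 counts or fewer in 33 of the 38 libraries, Lct (lactase, chr1:128284756-128328318) in 22 and Apoa4 (chr9:46240696-46243459) in 28, of which 20 had a count of 0. A count of 0 allows up to 3 counts, which was 0.0457 to 0.332 CPM across libraries (counting error only). Apoa4 overlaps Gm10680 and Fabp2 overlaps 4933405D12Rik on the other strand, and reads of such pairs cannot be told apart without strand.

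**Figure D1:**
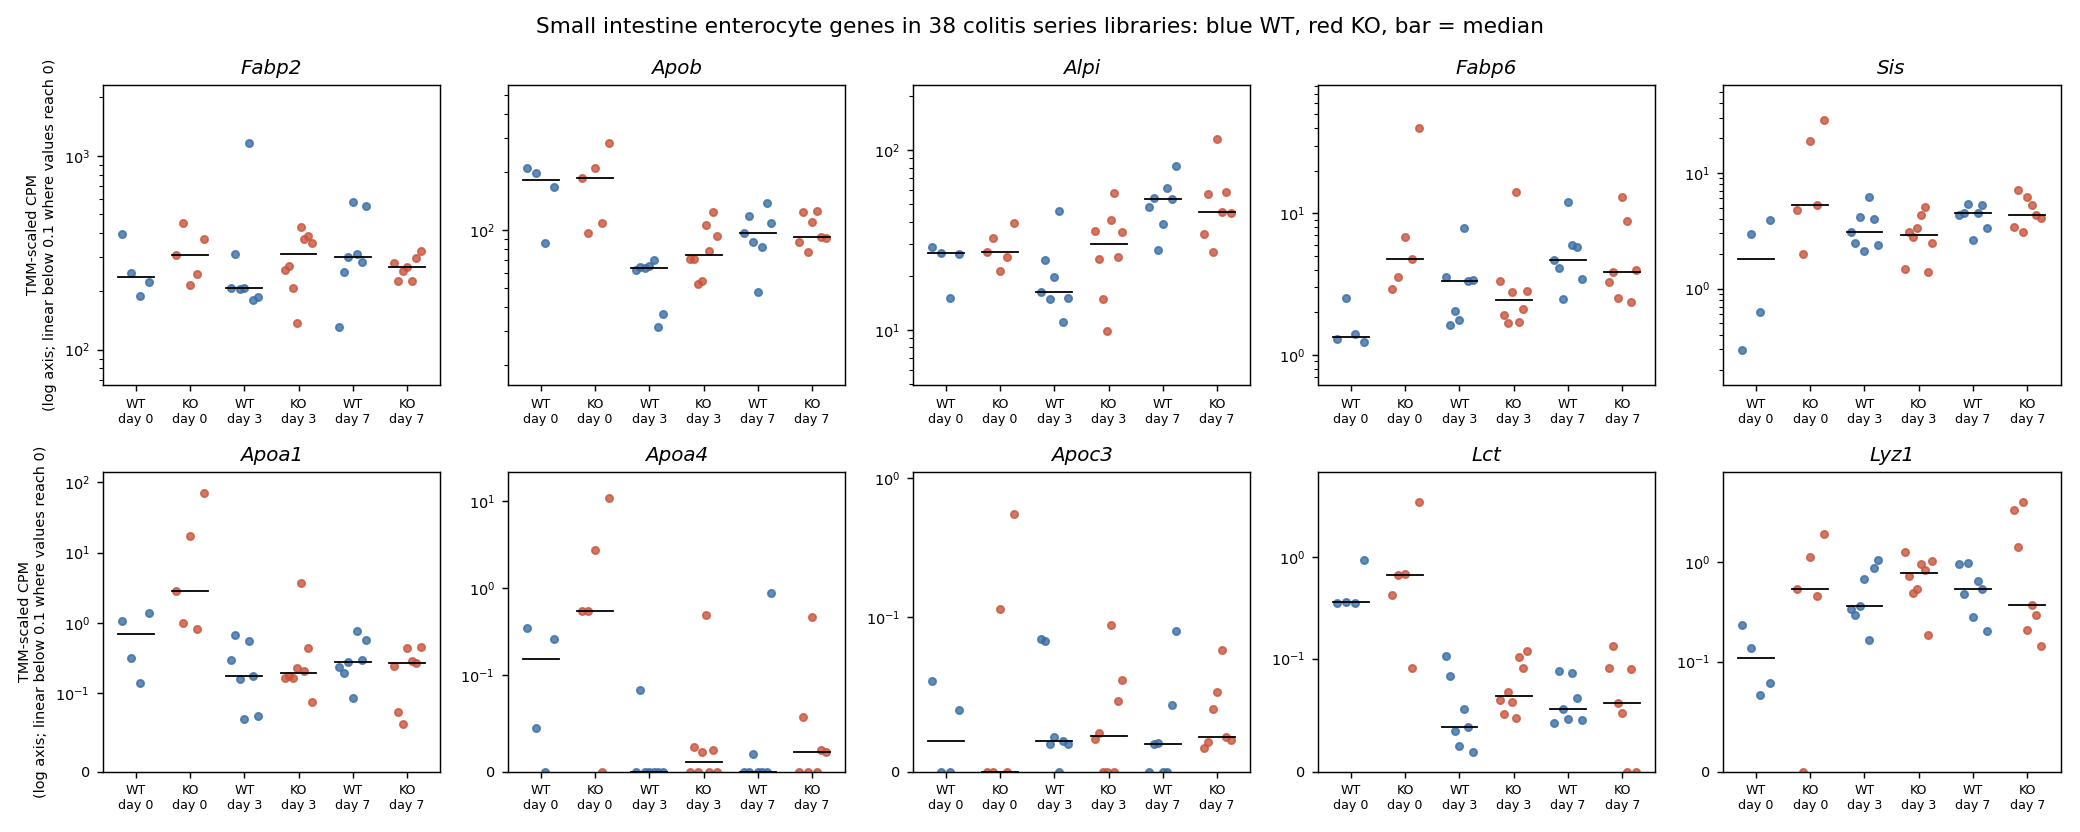
Level of each of the 10 members (vertical axis, TMM-scaled CPM, log scale, linear near 0 where values reach 0) in each library (point), by genotype and day (horizontal axis). Apoa1, Apoa4, Fabp6, Sis and Lct each have their highest point in the same KO library of day 0, while Fabp2, Apob and Alpi show no such gap on that day.

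Whether loss of Hk2 changed the members in untreated mice was compared first. Apoa1, the main protein of high density lipoprotein, was 1.06, 0.319, 0.140 and 1.38 CPM in the WT libraries d0_WT_31, 41, 43 and 46, and 2.85, 0.997, 17.1, 0.822 and 70.3 CPM in the KO libraries d0_KO_24, 32, 53, 54 and 60. The groups overlapped, and d0_KO_53 and d0_KO_60 stood above all others. Apoa1 was not called by edgeR, and no fold change is given for it, as it passed the filter on low counts only through KO.

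For Fabp6 the genotypes did not overlap on day 0. How many of all genes did so in groups of 4 and 5 libraries was not counted. In the same order, it was 1.29, 2.51, 1.40 and 1.22 CPM in WT and 2.91, 3.54, 6.81, 4.75 and 40.4 CPM in KO. The lowest KO library lay just above the highest WT library, and d0_KO_60 far above the rest. The log2 fold change was 2.89 (SE 0.78, adjusted p 0.266 in edgeR). Sis, which splits sucrose and starch fragments, was 0.294, 2.96, 0.630 and 3.87 CPM in WT and 4.73, 1.99, 18.9, 5.30 and 28.7 CPM in KO. Here the groups overlapped through d0_KO_32, the library with the largest mitochondrial share. Sis was not called by edgeR, and no fold change is given, as it also passed the filter on low counts only through KO.

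Of the 6 members with enough counts to be tested on day 0, edgeR called 0 (adjusted p under 0.05), and 3 had an unadjusted p under 0.05. Over all genes 0.0335% were called (5 of 14944). The DESeq2 Wald test called 2 of the 6, Apoa1 and Fabp6 (2.90, adjusted p 0.0469), and so did edgeR without the filter on low counts. Apoa1 reached the level of that filter in 4 of 5 KO and 2 of 4 WT libraries, and Sis in 5 of 5 and 3 of 4. Both passed it only through KO, where they were high, so nothing is read from their tests. Without d0_KO_53 and d0_KO_60, an alternative chosen after seeing the data, the log2 fold change of Fabp6 was 1.24 (SE 0.34, edgeR adjusted p 0.492). The labels do not say that each number is a separate mouse, and p-values measure the spread between these libraries.

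The abundant members gave small differences on day 0. Fabp2 was 394, 247, 189.8 and 224 CPM in WT and 307, 453, 216, 247 and 370.03 CPM in KO. Apob was 211, 199, 86.0 and 167 CPM in WT and 185, 96.6, 211, 109 and 284 CPM in KO. Alpi was 28.96, 26.9, 14.97 and 26.4 CPM in WT and 27.2, 32.3, 21.4, 25.6 and 39.2 CPM in KO. All 3 pairs of groups overlapped, with log2 fold changes of 0.30 (SE 0.24), 0.13 (SE 0.32) and 0.28 (SE 0.20) and edgeR adjusted p of 0.676, 0.908 and 0.637.

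The remaining 4 members had too few counts on day 0 to be tested. Apoa4 had 6, 1, 0 and 13 counts in WT and 9, 5, 48, 0 and 118 counts in KO. Lct had 6, 8, 5 and 46 counts in WT and 7, 6, 12, 1 and 37 counts in KO. Lyz1 had 4, 3, 1 and 4 counts in WT and 9, 0, 20, 5 and 21 counts in KO. In each of the 3 the levels of the groups overlapped and d0_KO_60 was highest, at 11.0, 3.44 and 1.95 CPM. Apoc3 had 2 counts or fewer in each day 0 library but d0_KO_60, which had 6.

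**Figure D2:**
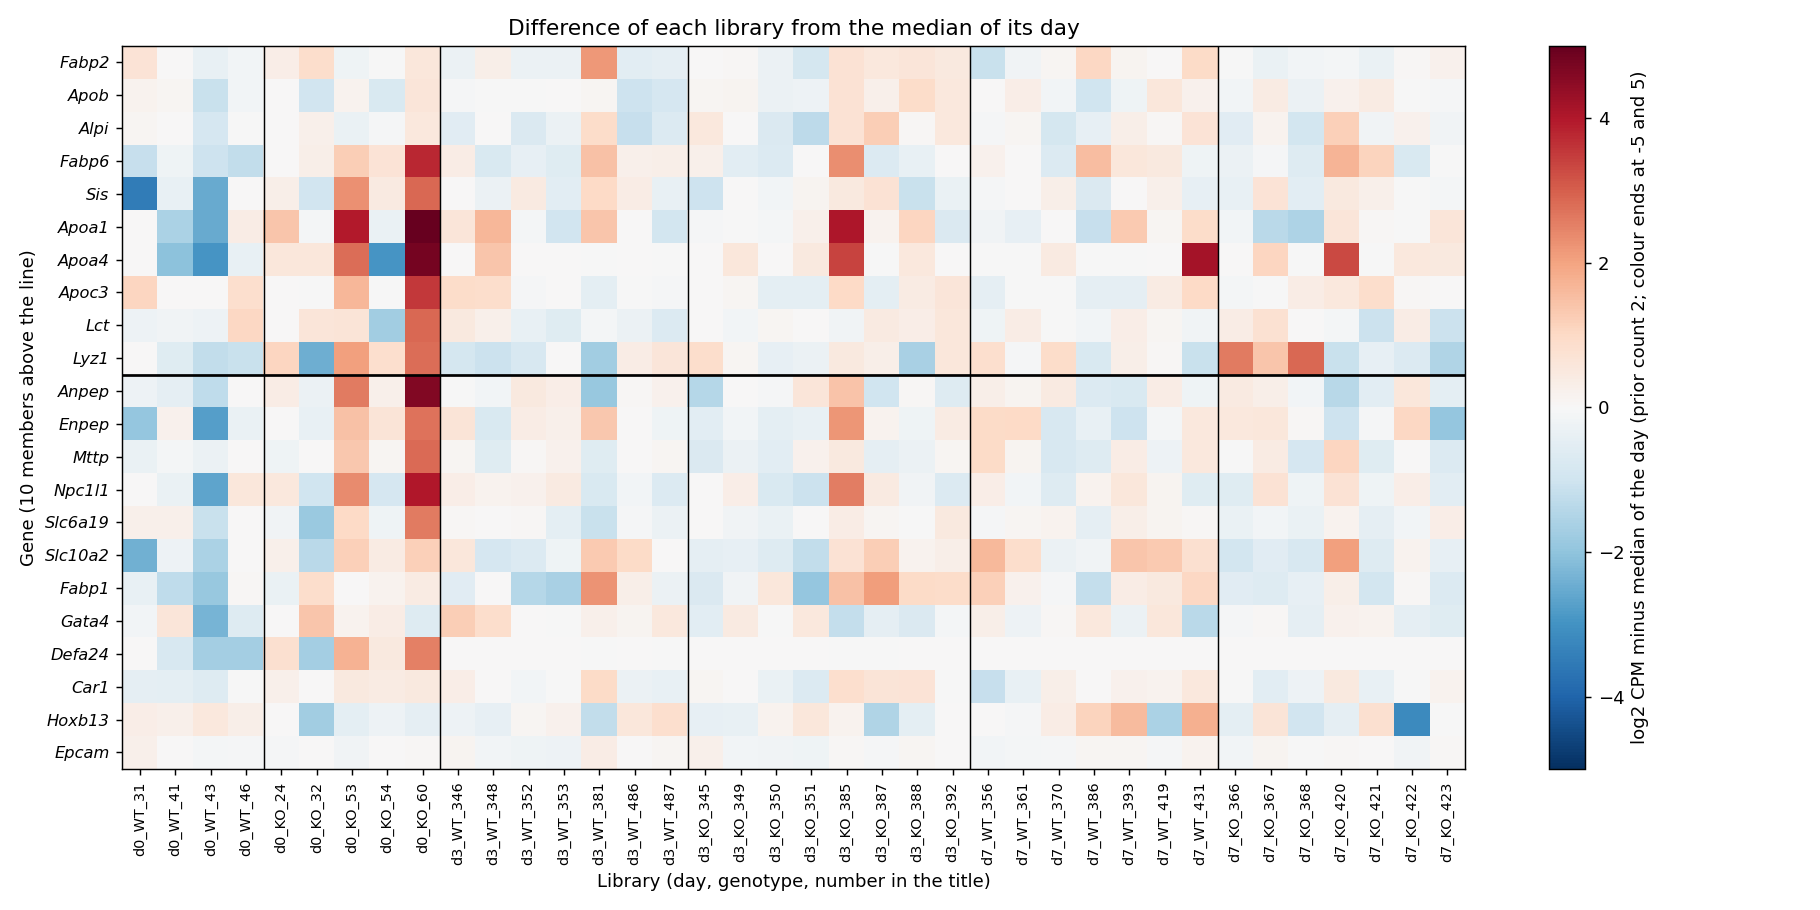
Difference of each of the 38 libraries (columns) from the median of its day, as log2 CPM with a prior count of 2, for the members and for other genes of the small intestine, the colon and the epithelium (rows). The columns of d0_KO_60 and, less so, d0_KO_53 and d3_KO_385 are raised for Apoa1, Apoa4 and Fabp6.

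The library d0_KO_60 was the highest of the 9 day 0 libraries for 9 of the 10 members, all but Fabp2. The share was 8.77% of the 12675 genes with a mean log2 CPM of at least 0. That set is unlike the members, since Apoa1, Apoa4, Apoc3, Lct and Lyz1 lay under that level. At 10.5 M counts, d0_KO_60 was also the shallowest library. With d0_KO_53 set aside, and libraries with 3 counts or fewer taken at 3 counts, it lay over 2-fold above the highest other day 0 library for 6 members: Apoa1 (24.6-fold), Apoa4 (19.8), Fabp6 (8.51), Sis (5.42), Lct (3.72) and Lyz1 (3.57). Apoc3 was 1.68-fold above the level that 3 counts make in d0_KO_32. Of the 12675 genes 17 (0.134%) lay over 2-fold above in the same way, Fabp6 and Sis among them, and the other 4 of the 6 lay under that mean level. The library was picked for these values, so they are a description and no test.

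Some genes of the other small intestinal lists were raised in the same library. The 17 genes over the fold also held genes outside all lists, namely Clca4b, Gm2061, Hmox1, Msln, Nos2, Reg3a, Slc26a6 and Soat2. Of 16 brush border genes 6 passed the same fold, among them Anpep, an aminopeptidase, at 96.3 CPM against 1.54 to 4.98, and Enpep, another aminopeptidase, at 30.2 against 0.630 to 7.31. Of 15 genes of fat absorption 2 did, Mttp, which loads fat onto apolipoprotein B, at 24.6 CPM against 2.64 to 3.56, and the cholesterol importer Npc1l1 at 12.1 against 0.0700 to 1.06. Of 12 transporters 1 did, Slc6a19, a carrier of neutral amino acids, at 10.7 CPM against 0.443 to 2.10. Of 13 Paneth cell genes 1 did, the defensin Defa24 at 10 counts (0.929 CPM against 0 to 0.243). In all 6 of the 13 were highest of the day there, 4 of them with 3 counts or fewer. None of 6 genes of ileal bile acid handling passed the fold.

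Not every small intestinal gene was high there. Fabp1, a fatty acid binding protein of liver and intestine, was at 0.558 CPM, within the range of the others (0.0700 to 0.775), and Gata4 at 0.558 CPM, also within it (0.140 to 2.44). Of the colonic markers, Car1 at 3893 CPM (1777 to 3672) and the water channel Aqp8 at 862 (179 to 560.2) were above the other libraries, and Hoxb13, a factor of the distal colon, at 105 (42.9 to 207) was within their range. All 6 pancreatic acinar genes had 3 counts or fewer, and the hepatocyte gene Alb had 6 counts. Whether small intestinal cells were in this sample was not tested.

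In d0_KO_53 fewer members stood out, and by less. Apoa1 was 6.00-fold above the highest of the other 7 libraries, Apoa4 4.96-fold, Sis 3.58-fold and Lyz1 2.10-fold. Anpep was at 23.0 CPM, Mttp at 8.59 and Npc1l1 at 3.84. Of the 12675 genes 8 (0.0631%) lay over 2-fold above, among them Cyp4b1, Defb37, Lamb1 and Reg3a, which are outside all lists. Fabp2 (216 CPM) and Alpi (21.4 CPM) were each next to lowest of the day, and Epcam, an epithelial marker, was lowest (1210.3 CPM).

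On day 3, d3_KO_385 had the highest Apoa1 (3.73 CPM), Fabp6 (14.2 CPM) and Apoa4 (0.499 CPM, 21 counts) of the 15 libraries. The other 14 reached 0.675, 7.82 and 0.0844 CPM. Npc1l1 was also highest there, at 2.09 CPM against 0.455 or less, whereas Sis (4.32 CPM) and Fabp1 (1.14 CPM) lay within the range of the day and Gata4 was the lowest (0.166 CPM).

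Genotypes were next compared during colitis. On day 3, Fabp2 was 179.8 to 1159 CPM in WT (median 208) and 138 to 428 CPM in KO (median 312). Apob was 31.3 to 69.6 CPM in WT (median 63.6) and 52.5 to 124 CPM in KO (median 74.3). Both pairs overlapped. Of the 6 members tested 0 were called by edgeR or DESeq2, and 1, Apob, had an unadjusted p under 0.05 (log2 fold change 0.52, SE 0.21, edgeR adjusted p 0.623). Over all genes 0.00647% were called (1 of 15461).

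Single libraries set the direction of 2 members on day 3. Fabp2 was 1159 CPM in d3_WT_381 and at most 313 CPM in the other 6 WT libraries, and without d3_WT_381 the log2 fold change moved from -0.24 to 0.47. That library also had the highest shares after day 0 of mitochondrial ribosomal RNA (3.95%) and of all counts from the mitochondrial genome (41.7%). It had the fewest genes detected of the 38 libraries (19084). The part of these features in the value was not tested. For Fabp6 the log2 fold change was 0.20, and -0.52 without d3_KO_385. Without d3_KO_345, which goes against its label, Apob was at 0.55 (edgeR adjusted p 0.770).

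On day 7, Alpi was 27.7 to 82.1 CPM in WT (median 53.6) and 27.1 to 115 CPM in KO (median 45.5). Apob was 47.9 to 138 CPM in WT (median 96.7) and 77.0 to 126 CPM in KO (median 92.2). Sis was 2.63 to 5.40 CPM in WT (median 4.47) and 3.09 to 7.16 CPM in KO (median 4.35). The groups overlapped for each gene. Of the 7 members tested 0 were called by edgeR or DESeq2 and 0 had an unadjusted p under 0.05, beside 0.00642% of all genes called (1 of 15584). Log2 fold changes were 0.07 for Alpi (SE 0.29), 0.06 for Apob (SE 0.18), 0.16 for Sis (SE 0.21), -0.37 for Fabp2 (SE 0.25), -0.02 for Fabp6 (SE 0.42) and -0.43 for Apoa1 (SE 0.46).

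**Figure D3:**
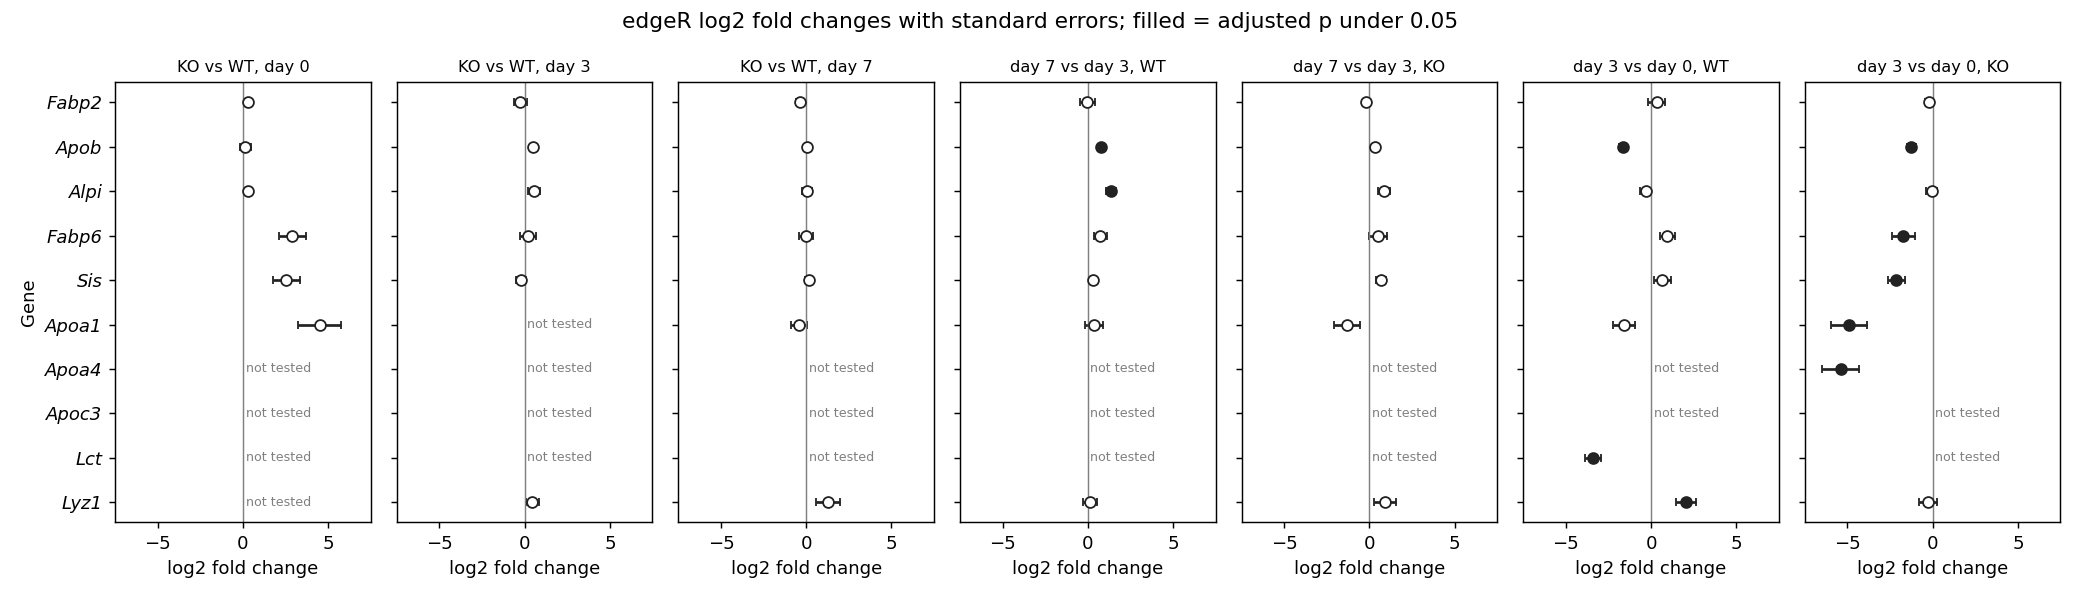
Log2 fold change of each tested member (edgeR) with its standard error, by comparison. No member passed an adjusted p of 0.05 between genotypes, where Apoa1 and Sis entered the day 0 test only through KO. Alpi and Apob passed between days 7 and 3 in WT. Between days 3 and 0, 3 members in WT and 5 in KO passed. Of these, Lct and Lyz1 in WT and Apoa1 in KO entered the test only through 1 of the days, and Apoa4 in KO mainly so.

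Days 3 and 7 of colitis share a library series. In WT mice Alpi, which detoxifies bacterial lipopolysaccharide, was 11.0 to 45.7 CPM on day 3 (median 16.3) and 27.7 to 82.1 CPM on day 7 (median 53.6). The groups overlapped only through d3_WT_381, the highest of day 3. Alpi rose by a log2 difference of 1.33 (SE 0.29, adjusted p 0.00510 in edgeR). Apob was 31.3 to 69.6 CPM on day 3 and 47.9 to 138 CPM on day 7, with d7_WT_386 the one day 7 library inside the day 3 range, and rose by 0.80 (SE 0.22, edgeR adjusted p 0.0172). In these bulk libraries, fewer cells of a type and less RNA per cell cannot be told apart.

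These were 2 of the 7 members tested in WT, where 10.6% of all genes were called higher, 8.7% lower and 19.3% in either direction. The others did not pass: the log2 fold change was 0.74 for Fabp6 (edgeR adjusted p 0.197), 0.38 for Apoa1, 0.32 for Sis, 0.13 for Lyz1 and -0.02 for Fabp2. Fabp6 passed without d3_WT_381 (1.07, edgeR adjusted p 0.0281). The median over the 7 members was 0.38, and over all genes 0.01.

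In KO mice 0 of 7 members were called by edgeR or DESeq2, beside 19.3% of all genes (3008 of 15568; 10.5% higher and 8.83% lower), and 2 had an unadjusted p under 0.05. Alpi was 9.86 to 57.6 CPM on day 3 and 27.1 to 115 CPM on day 7, a log2 difference of 0.85 (SE 0.35, adjusted p 0.1004 in edgeR). Sis was 1.40 to 5.07 CPM and then 3.09 to 7.16 CPM, a log2 difference of 0.69 (SE 0.27, adjusted p 0.0914 in edgeR). The days overlapped for both genes. Both passed without d3_KO_387, with edgeR adjusted p of 0.0423 and 0.0385, and Fabp6 passed without d3_KO_385 (1.22, edgeR adjusted p 0.0343). Without d3_KO_345, Alpi was at 0.89 and Sis at 0.58, with edgeR adjusted p of 0.102 and 0.121. Tested as an interaction, the difference between genotypes was -0.46 for Alpi (SE 0.48) and -0.46 for Apob (SE 0.29). The interaction called 0 of 16371 genes in edgeR, with 440 at an unadjusted p under 0.05, and 0 of 7 members in DESeq2, so the calls in WT do not show that the genotypes differed.

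Of 6 genes of ileal bile acid handling 4 could be tested. On day 7, 4 of these in WT and 3 in KO were called higher, beside 10.6% and 10.5% of all genes. The other 2, Fgf15 and Nr0b2, had 3 counts or fewer in each day 3 library. The importer Slc10a2 was 6.10 to 27.3 CPM on day 3 and 21.4 to 80.8 CPM on day 7 in WT, a log2 difference of 1.87 (SE 0.37, adjusted p 0.00268 in edgeR), and in KO the value was 1.39 (SE 0.48, edgeR adjusted p 0.0512). Nr1h4, the bile acid receptor FXR, was 72.0 to 120.2 CPM and then 135 to 255 CPM in WT, and 62.4 to 118 CPM and then 133 to 303 CPM in KO. The days did not overlap for Nr1h4 in either genotype, and how many of all genes did so was not counted. Slc51b, a subunit of the bile acid exporter, rose by 1.63 in WT (edgeR adjusted p 0.00665) and 1.38 in KO (edgeR adjusted p 0.00137). Fabp6, the carrier inside the cell, passed in neither.

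**Figure D4:**
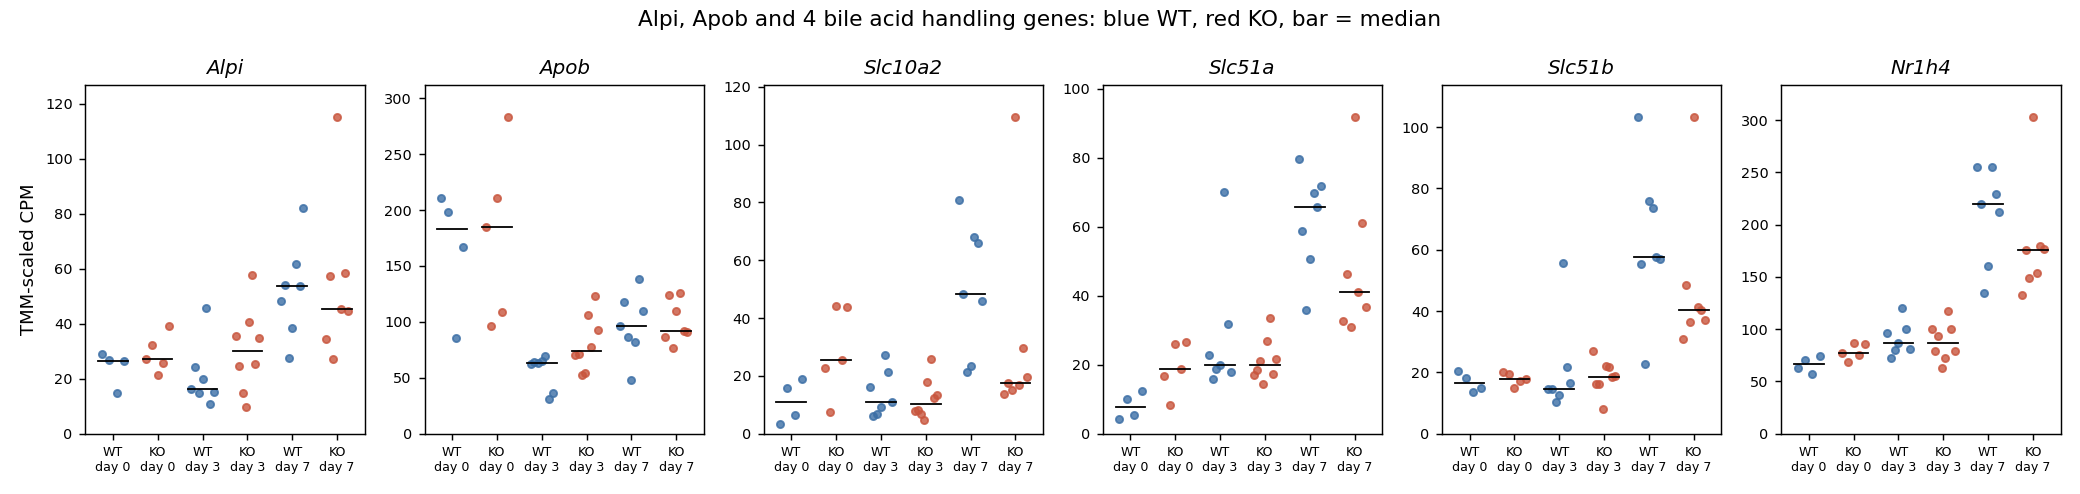
Level of Alpi, Apob and genes of bile acid handling (vertical axes, TMM-scaled CPM) in each library (point), by genotype and day. Nr1h4 on day 7 lies above day 3 in both genotypes without overlap, while Alpi and Apob overlap between the days. The share of all genes without overlap was not counted.

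The other lists are read against the share over all genes, 10.6% higher and 8.7% lower in WT and 10.5% and 8.83% in KO. Among genes of fat absorption, 4 of 14 tested were higher and 1 lower on day 7 in WT, led by Creb3l3, a regulator of apolipoprotein genes (2.52, SE 0.40), and 2 were higher in KO, Dgat2 and Dgat1, which make triglyceride, a count near that share. Among brush border genes 3 of 14 were higher and 2 lower in WT, and 5 higher and 3 lower in KO. Ggt1, which splits glutathione, was higher (1.35 and 1.23) and the peptidase Naaladl1 lower (-1.30 and -0.92) in both genotypes. Among transporters 2 of 10 were higher and 2 lower in WT, and 3 higher and 3 lower in KO. Both partners of the cystine carrier were higher, Slc7a9 (1.94 and 1.20) and Slc3a1 (1.80 and 1.13), and the folate carrier Slc46a1 was lower (-1.24 and -1.32).

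Genes of other lists moved over the same days. Of 14 genes of the colonocyte list 8 were lower in WT and 9 in KO, with 0 higher, led by Hoxd13 (-2.30 and -3.54). The list holds Hox genes beside markers of the cell type, among them Hoxb13, the factor of the distal colon (-1.81 and -2.54). Of the others, Atp12a (-1.92) was lower in WT and Slc37a2 (-2.19) in KO. The summed level of the 14 genes went the other way in its median, from 6494 to 9764 CPM in WT and from 7112 to 8661 CPM in KO, with overlapping days. All 7 neutrophil genes were called higher in both genotypes, and their summed level was 8.05 to 45.3 CPM on day 3 and 146 to 1043 CPM on day 7 in WT. In KO it was 13.9 to 149 CPM and then 119.7 to 1728 CPM, and the days overlapped through d3_KO_345 alone, the library that goes against its label, which was also the highest of day 3 KO for macrophage genes. The 8 macrophage genes summed to 10.8 to 18.5 CPM and then 33.7 to 140.5 CPM in WT, and 10.4 to 75.5 CPM and then 44.5 to 365.7 CPM in KO. Of 5 lymphocyte and plasma cell genes 4 were called higher in each genotype, and the sum was 4.78 to 27.5 CPM and then 21.7 to 112 CPM in WT, and 16.5 to 29.3 CPM and then 38.3 to 87.9 CPM in KO. The 8 epithelial genes summed to 10822 to 17539 CPM and then 11865 to 15333 CPM in WT, and 10564 to 18617 CPM and then 11505 to 15789 CPM in KO. The part of these shifts in the values of Alpi and Apob was not tested.

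Comparisons of day 3 with day 0 hold the change of library series. Of the 14 genes of the colonocyte list tested, edgeR called 5 higher and 3 lower in WT, beside 20.4% and 25.6% of all genes. In KO it called 5 higher and 0 lower, beside 22.6% and 23.7%. Hoxd13 was higher in both (4.51 and 5.92), and Hoxd11 and Hoxd12 had 3 counts or fewer in each day 0 library. Which day carried these genes past the filter was not examined. Whether the stretch of gut sampled differed between the days was not tested. In WT 3 of 8 members tested were called, beside 46% of all genes (20.4% higher and 25.6% lower). Nothing is read from that count, since 2 of the 3, Lct and Lyz1, passed the filter on low counts only through the day on which they were high. Apob was 86.0 to 211 CPM on day 0 and 31.3 to 69.6 CPM on day 3, and its log2 fold change was -1.65 (SE 0.25, adjusted p 0.000116 in edgeR). These ranges did not overlap, a trait that was not counted over all genes. Lct was 0.350 to 0.923 CPM on day 0 (5 to 46 counts) and 0.0178 to 0.107 CPM on day 3 (1 to 5 counts), where 0 of 7 libraries reached the level of the filter. Lyz1 was 0.0700 to 0.235 CPM on day 0 (1 to 4 counts), where 1 of 4 libraries reached it, and 0.166 to 1.05 CPM on day 3 (3 to 59 counts). Genes that pass in this way are selected for being high on 1 day, so no fold change or p is given for Lct and Lyz1.

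In KO 5 of 8 members tested were called, all lower on day 3, beside 23.7% of all genes called lower, 22.6% higher and 46.3% in either direction. Nothing is read from that count, since 2 of the 5, Apoa1 and Apoa4, entered the test through day 0, where they were high. Apoa1 passed the filter on low counts only through day 0, as 5 of 5 libraries reached its level there and 2 of 8 on day 3. Apoa4 passed it mainly through day 0, with 4 of 5 libraries against 1 of 8. Their fold changes are not given. Apoa1 was 0.822 to 70.3 CPM and then 0.0888 to 3.73 CPM. Apoa4 had 0 to 118 counts and then 0 to 21, with 3 or fewer in 7 of the 8 day 3 libraries. Log2 fold changes of the other 3 were -2.14 for Sis (SE 0.49), -1.73 for Fabp6 (SE 0.67) and -1.25 for Apob (SE 0.25), with edgeR adjusted p of 0.00245, 0.0453 and 0.000899. Without d0_KO_53 and d0_KO_60, 1 of these 3 passed, Apob at -0.80 (SE 0.26, edgeR adjusted p 0.0301). Sis and Fabp6 were then at -0.55 and -0.07, with edgeR adjusted p of 0.304 and 0.949. Without d3_KO_345, Fabp6 was at -1.71 and did not pass (edgeR adjusted p 0.0639), and Sis and Apob had edgeR adjusted p of 0.00434 and 0.00182. Of 13 brush border genes tested 8 were lower and 0 higher in KO, Enpep (-2.61) and Anpep (-2.09) among them, both raised in d0_KO_60.

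Lyz1 spread most in KO mice on day 7. It was 0.144, 0.207, 0.296, 0.368, 1.43, 3.37 and 4.12 CPM in the 7 KO libraries, from lowest to highest, against 0.205 to 0.999 CPM in WT (median 0.540). The 3 high libraries were d7_KO_367, d7_KO_366 and d7_KO_368, and the other 4 lay within or below the WT range. The log2 fold change was 1.26 (SE 0.70, adjusted p 0.434 in edgeR). Lyz2 was also highest in these 3 libraries, at 94.1, 118 and 212 CPM, and Lyz1 counts were 1.52, 2.86 and 1.94% of Lyz2 counts.

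Lyz1 did not follow Lyz2 everywhere. In d7_KO_422 Lyz2 was 86.2 CPM with Lyz1 at 0.296 CPM, and in d0_KO_60 Lyz1 was 1.95 CPM with Lyz2 at 2.69 CPM. The part of reads from Lyz2 in the Lyz1 counts was not tested. Of 13 other Paneth cell genes 10 had 3 counts or fewer in each KO library of day 7, all defensins of the list among them. The 13 summed to 10.8 to 15.7 CPM there, nearly all from 3 genes that were not near 0, the ribonuclease Ang4 (4.93 to 13.2 CPM), the metalloprotease Mmp7 (1.55 to 5.79 CPM) and the lectin Itln1 (at most 1.19 CPM). Between days 3 and 7 Mmp7 was called higher by edgeR in WT (1.34) and KO (1.56), Itln1 lower in both (-1.09 and -2.99) and Ang4 lower in KO (-3.68). The sum was highest in d0_KO_54 (686 CPM) and d3_KO_350 (503 CPM), where Lyz1 was at 0.457 and 0.4933 CPM.

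**Figure D5:**
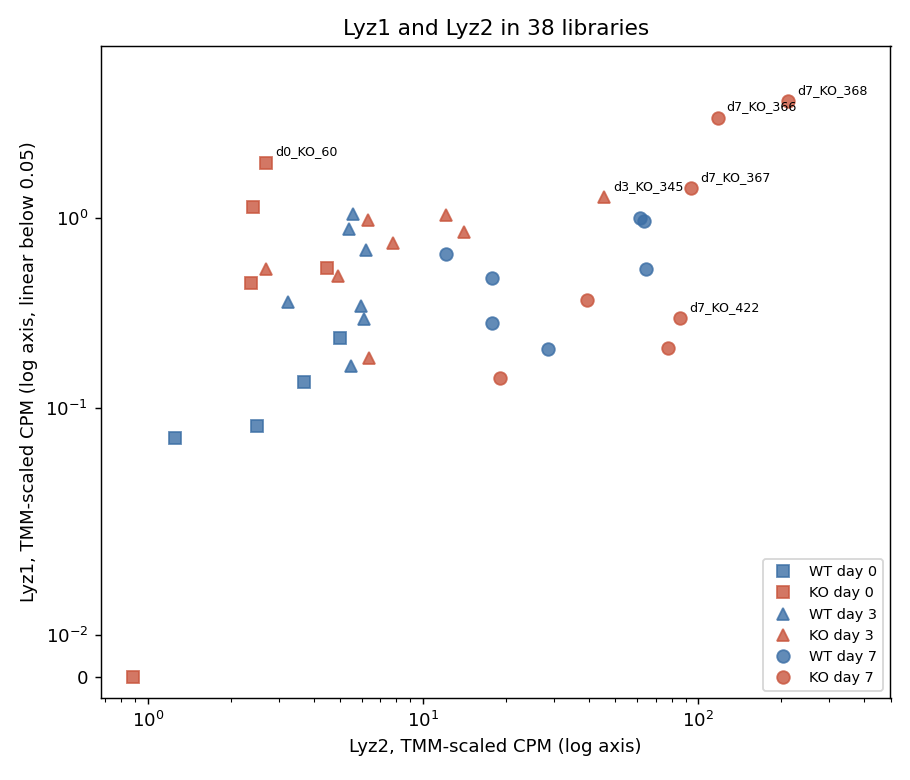
Lyz1 (vertical axis) against Lyz2 (horizontal axis), both in TMM-scaled CPM on log scales, in the 38 libraries (points), by genotype and day. The highest Lyz2 values, in d7_KO_366, d7_KO_367 and d7_KO_368, go with high Lyz1, while d7_KO_422 has high Lyz2 and low Lyz1.

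The members varied together in part. Over the 38 libraries, on log2 CPM centred on group means, Pearson r was 0.77 for Apoa1 and Apoa4, 0.75 for Apoa4 and Apoc3, 0.73 for Apoa1 and Apoc3, which lie side by side on chromosome 9, and 0.60 for Fabp2 and Alpi. The lowest was -0.33, for Fabp2 and Lyz1. For Apoa1 and Apoa4, r was 0.92 in the 9 day 0 libraries, which include d0_KO_53 and d0_KO_60, and 0.59 in the 29 later ones. For Apoa1 and Lct it was 0.81 on day 0 and -0.08 later. The points share depth and library series, and most Apoa4 and Apoc3 counts were 3 or fewer.

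The genes most like the members in pattern were ranked by Pearson r with the mean log2 CPM of the 10 members, centred on group means, over 38 libraries and 12675 genes. Of the first 10, Slc6a19 led at 0.74, and the others included the riboflavin carrier Slc52a2 (0.74), Sema6a (0.71), Slc35f5 (0.69), Ggt1 (0.67), the brush border cadherin Cdhr2 (0.67), Mttp (0.67), Cxadr (0.67) and Tom1l2 (0.66). Over the 29 libraries of days 3 and 7 alone, 1 of these 10, Slc52a2, was again among the first 10, which Slc25a10 (0.78) and Tm6sf2 (0.78) then led.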

How the data were processed

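RNA from isolated intestinal epithelial cells was sequenced in 38 libraries (paired reads of 50 bases, stranded mRNA kit, per the labels' protocols). The deposited values are raw counts per gene, made by the authors with featureCounts in unstranded mode, version 1.6.2 per the file headers and 1.5.2 per the submitters' processing notes, which also name Trim Galore, STAR and GRCm38. The 76 files hold 2 lanes per library, which were summed. Lane counts correlated at 0.989 or more on a log2 scale.

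Groups came from the titles and labels. Each pair of groups was fitted alone in edgeR 4.0.16 (R 4.3.3): filterByExpr, TMM, quasi-likelihood test, Benjamini-Hochberg over all genes tested, called under 0.05. The interaction used the 4 groups of days 3 and 7. CPM values were scaled by TMM over 38 libraries. Alternatives were DESeq2 1.42.0, DESeq2 size factors, no filter, a fit of all 38 libraries, lane 1 alone, no mitochondrial genes and each library left out. The edgeR steps were tested on simulated data. Named genes were the 10 members, Hk2, Lyz2, Akp3, the first 10 genes by correlation, and from each list the called genes with the largest changes, apart from items not reported here; other genes named in single libraries and the bile acid genes beyond these were chosen after their values were seen. Members and lists were chosen with earlier results of these data known. Promoter sequences are from RefSeq (GRCm38.p6) and transcripts from GENCODE M21.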

Additional observations from a re-analysis of the deposited data

Results flagged for a closer look

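In 9 of the 58 combinations of a member and a group that could be examined, 1 library lay far from the others of its group by Dixon's criterion. Chance alone flags about 1 in 20 groups where values are normally spread. In each group where Apoa4 was flagged, every other library had 3 counts or fewer, so the 9 are not read against that rate. In WT on day 3, Fabp2 was 1159 CPM in d3_WT_381 against 180 to 313 CPM in the other 6. In KO on day 3, d3_KO_385 was apart in 3 members: Fabp6 at 14.2 CPM (1.69 to 3.34 in the others), Apoa1 at 3.73 CPM (0.0888 to 0.437) and Apoa4 at 0.499 CPM (0 to 0.0253). Apoa4 was apart in 3 more groups, at 0.467 CPM in d7_KO_420 (18 counts), 0.888 CPM in d7_WT_431 (39 counts) and 0.0844 CPM in d3_WT_348 (4 counts). The last is not resolved at this depth, since the other 6 had a count of 0, which allows up to 0.166 CPM in d3_WT_381. On day 0 in WT, Lct was high in d0_WT_46 at 0.923 CPM (0.35 to 0.365 in the others), and Alpi was low in d0_WT_43 at 14.97 CPM (26.4 to 28.96). The high values of d0_KO_60 were not apart by this criterion within day 0 KO.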

How the results depend on the processing

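No paired analysis was possible because no 2 groups share library numbers. Of 344 alternatives without a left-out single library, 325 kept direction and side of the threshold, as did 783 of 833 that left out 1 library. The cause of the other changes was not tested.

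Genes called between genotypes on day 0 were 5 in edgeR, 177 in DESeq2, 52 without the filter and 1 without d0_KO_53 and d0_KO_60. Members called there were 0, and 2 in DESeq2 and 2 without the filter. On day 3 DESeq2 called 2 genes against 1. On day 7 DESeq2 called 83 genes, the fit without the filter 2 and the fit of all 38 libraries 38, against 1. Members called between days 7 and 3 in KO were 0, and 1 in the fit of all 38 libraries (Alpi). Between days 3 and 0, members called were 3 in WT and 6 without the filter, and 5 in KO, 3 from lane 1 alone and 1 without d0_KO_53 and d0_KO_60. Log2 fold changes turned for Apob on day 0 (-0.32) and for Lyz1 between days 3 and 0 in KO (0.95) without d0_KO_53 and d0_KO_60, in DESeq2 for Apoa1 between days 7 and 3 in KO (0.28) and for Fabp2 between days 3 and 0 in WT (-0.39), and without the filter for Alpi between days 3 and 0 in KO (0.0088).

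Leaving out 1 library, genes called between genotypes ranged from 0 to 37 on day 0, 0 to 1 on day 3 and 1 to 2 on day 7. Members called ranged from 0 to 2 between days 7 and 3 in KO, and between days 3 and 0 from 2 to 5 in WT and 3 to 6 in KO. Directions turned in these ranges of log2 fold change. Between genotypes they were -0.10 to 0.30 for Apob on day 0, -0.36 to 0.47 for Fabp2 and -0.52 to 0.54 for Fabp6 on day 3, and -0.41 to 0.30 for Fabp6, -0.056 to 0.17 for Apob and -0.24 to 0.21 for Alpi on day 7. Between days 7 and 3 they were -0.22 to 0.67 for Fabp2 and -0.055 to 0.37 for Lyz1 in WT, and -1.52 to 0.29 for Apoa1 in KO. Between days 3 and 0 they were -0.36 to 0.61 for Fabp2 in WT, and -0.25 to 0.078 for Alpi and -0.50 to 0.26 for Lyz1 in KO. For the interaction they were -0.84 to 0.037 for Fabp2 and -0.60 to 0.50 for Fabp6. Fabp6 between days 3 and 0 in KO lost its call in 9 of 13 such fits. The depth limits Apoa4, Apoc3 and Lct most, with 3 counts or fewer in 28, 33 and 22 libraries.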
